A study of Mus musculus with 22 samples.

Results

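Microglia lacking Vldlr were compared with control microglia of the mouse retina at postnatal day 17 (P17). The comparison takes 12 of the 22 RNA sequencing libraries of the study: all 7 labelled as P17 control and all 5 labelled as P17 Vldlr knockout (KO), chosen by their labels and column names. The other libraries were made at postnatal day 31 (P31), with 5 control and 5 KO. The series title asks what microglia do in retinal angiomatous proliferation, in which vessels of the retina's own circulation grow abnormally toward the pigment epithelium.

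Cells of both genotypes were sorted as CD45low, CD11b+, Ly6C-, Ly6G- and Tom+, so all 12 libraries carry a Tom reporter. The labels give neither the driver of that reporter, nor the strain or sex, nor which exons the knockout lacks, and they call the other genotype only "control". They do not say that each library came from its own animal, so p-values here measure the spread between libraries, which may be partly technical. In sorted bulk RNA, fewer cells of a type and less RNA per cell cannot be told apart.

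The product of Vldlr, the receptor for very low density lipoprotein, is a lipoprotein receptor that takes up triglyceride-rich lipoproteins and also binds reelin. Microglia are the resident macrophages of the nervous tissue; in the retina they survey synapses and vessels, clear debris and export lipid through apolipoprotein E. In an injured or diseased retina they lower surveillance genes such as P2ry12 and Tmem119 and raise lipid, lysosomal and lectin genes, a programme known as disease-associated.

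The libraries held 23.9 to 33.7 M reads. KO library 1 stood apart from the others. Its 10 largest genes took 34.5% of reads against 13.2 to 18.1% elsewhere, and Cst3, the cystatin C gene, alone took 11.3%. On a scale where the geometric mean of the libraries is 1, the size factor deposited for it was 0.944, that of DESeq2 on its reads 0.424 and that of TMM 0.491. Values below are TMM-scaled reads per 1e6 reads (RPM), which do not use the deposited factor. The comparison was also made without this library, and counts or medians that move are given both ways.

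The sorted identity held in every library. Tmem119 lay at 3235 to 4947 RPM in controls and 1456 to 4926 RPM in the KO, Cx3cr1 at 1906 to 2382 and 2076 to 2598 RPM, and the monocyte gene Ly6c2 was at 0 in all 5 KO libraries and at most 2.45 RPM in controls. Reads of other retinal cells were present in both groups. The 22 rod photoreceptor markers summed to 932 to 12172 RPM in controls and 819.8 to 3029.9 RPM in the KO, so that the groups overlapped, with no marker at 0 in either group. The 23 interneuron and ganglion cell markers summed to 89.9 to 323 RPM in controls and 60.9 to 74.8 RPM in the KO, without overlap; Pou4f2 was at 0 in all controls, and Trpm1, Slc32a1 and Slc17a6 were at 0 in all KO libraries. The part of these cells in the results was not tested beyond the rod score below. The 4 Y-linked genes summed to 60.3 to 168 RPM in controls, while they were at 0 in KO libraries 2, 3 and 5 and reached 51 RPM at most in the other two KO libraries. Xist, the X inactivation RNA, lay between 65.2 and 279 RPM in the KO and was above 1.04 RPM in controls 4 and 6 only. Genotype and the balance of Y-linked and Xist reads therefore cannot be told apart here.

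**Figure D1:**
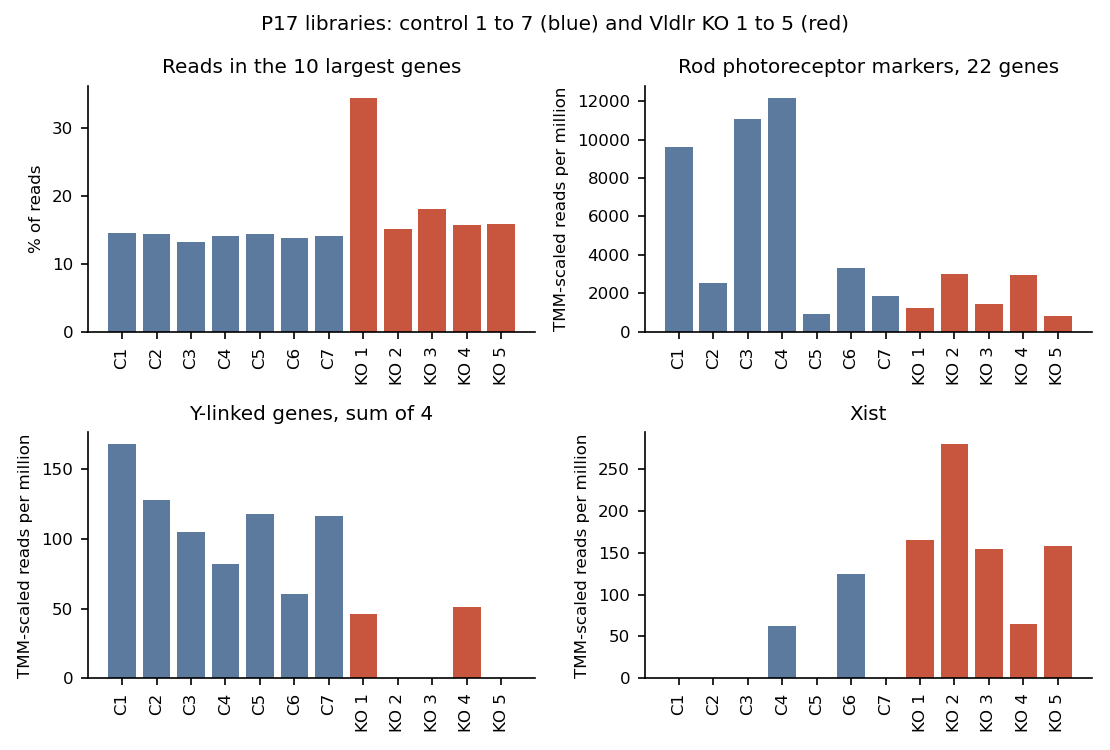
Share of reads in the 10 largest genes (%), summed rod marker and Y-linked RNA, and Xist (RPM) in each of the 12 P17 libraries; each bar is 1 library, C for control and KO for knockout. KO library 1 is the bar at 34.5%, controls 1, 3 and 4 hold the most rod RNA, and KO libraries 2, 3 and 5 hold no Y-linked reads.

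Across all genes, microglia from the KO differed in 192 of 13076 genes tested (limma, Benjamini-Hochberg adjusted p under 0.05), which is 1.47% of them. Of these, 106 rose in the KO (0.811% of genes tested) and 86 fell (0.658%). The absolute log2 fold change of the called genes ran from 0.78 to 6.38 with a median of 2.31, beside a median log2 fold change of -0.09 over all genes. In 151 of the 192 the 5 KO libraries lay wholly above or below the 7 controls. Over all genes tested the KO libraries lay wholly above the controls in 239 (1.83%) and wholly below in 139 (1.06%).

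Leaving out KO library 1 raised the count to 306 genes (2.34%), 182 higher (1.39%) and 124 lower (0.948%). Of the 192, 169 (88.0%) were called again, all in the same direction, and they make up 55.2% of the 306. Of the 192 calls, 99 held in every fit that left out 1 of the 12 libraries, 74 of the 106 higher and 25 of the 86 lower. The count fell to 109 without KO library 3 and to 114, 123, 124 and 124 without control 3, 4, 1 and 2. Taking the rod score (the mean log2 level of the rod markers) as a covariate left 59 genes called (0.451%), 57 of them among the 192. The Y-linked score left 49 (0.375%), 44 of them among the 192. Under each score in turn, 30 of the 106 higher calls and 5 of the 86 lower calls were made again.

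**Figure D2:**
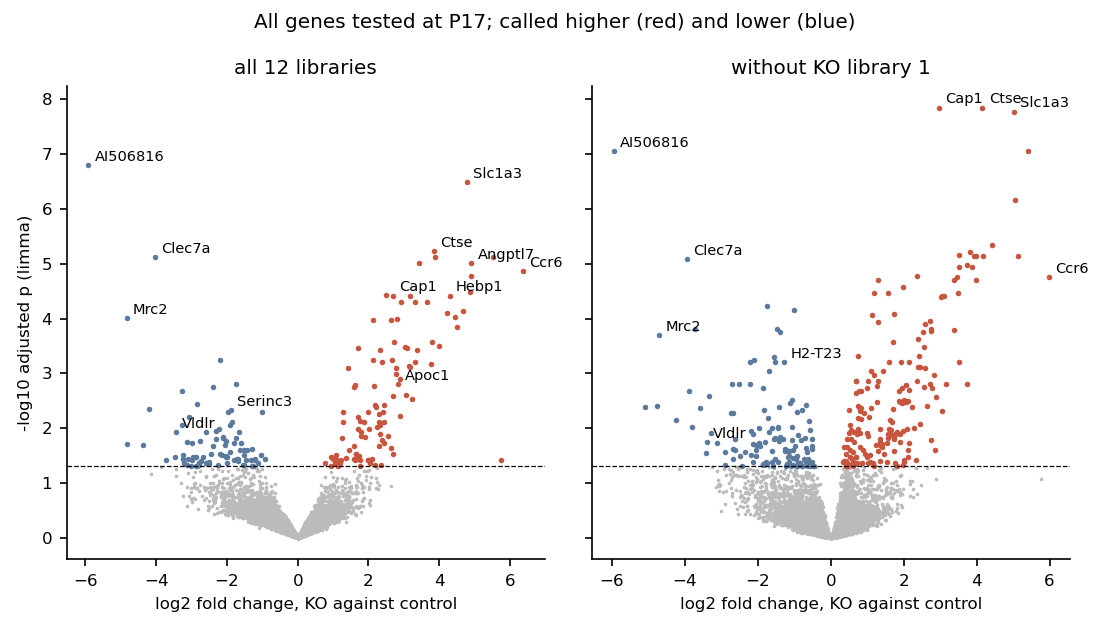
Log2 fold change of KO against control (x) and -log10 of the limma adjusted p (y) for the 13076 genes tested, with all 12 libraries (left) and without KO library 1 (right); the dashed line marks an adjusted p of 0.05. With all libraries 106 genes are called higher and 86 lower; without KO library 1 these are 182 and 124.

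The targeted gene was nearly absent in the KO. Vldlr (ENSMUSG00000024924, chr19:27216484-27254231) on mm10, plus strand, stood at 0, 0.478, 0, 0.471 and 0 RPM in KO libraries 1 to 5. In controls the lowest, median and highest values were 1.5, 12.2 and 22.5 RPM. Every KO library was below every control, with a log2 fold change of -3.45 ± 0.65 (SE) at a limma adjusted p of 0.0119, and -3.40 without KO library 1 (limma adjusted p = 0.0178). The call held in all 12 fits that left out 1 library, at an adjusted p of at most 0.0412, but not with the rod score (adjusted p = 0.304), the Y-linked score (adjusted p = 0.189) or limma voom (adjusted p = 0.232). Which exons hold the remaining reads cannot be read from gene counts.

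Vldlr was the only called gene of its family list, which holds lipoprotein receptors, reelin signalling genes and receptor chaperones: 0 rose and 1 fell of 19 tested (median log2 fold change -0.49). Without KO library 1 the count was again 0 higher and 1 lower, with a median of -0.27. Lrpap1, a chaperone of these receptors, was at 419, 265, 320.3, 315 and 333 RPM beside 197, 238 and 258 RPM in controls, above all of them in every KO library but not called (limma adjusted p = 0.261, and 0.0673 without KO library 1).

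Homeostatic genes of microglia did not move together. In that list 2 rose and 1 fell of 30 tested (median log2 fold change -0.07), and without KO library 1 the counts were 4 higher and 1 lower with a median of 0.04. Sparc, a secreted matrix-binding glycoprotein of resting microglia, was at 20511, 10357, 10641, 10977 and 10876 RPM in the KO. Its controls had 5300.1, 6565 and 7921 RPM, all below the KO libraries, and it rose with a log2 fold change of 0.94 ± 0.21 (SE) at a limma adjusted p of 0.034. Upk1b, a tetraspanin, was at 37.9, 32.3, 35.1, 21.2 and 47.6 RPM beside 0.857, 5.97 and 7.5 RPM in controls, again with no overlap, and rose with a log2 fold change of 2.68 ± 0.42 (SE) at a limma adjusted p of 0.00264. Slc2a5, the fructose transporter of microglia, fell in all 5 KO libraries but unevenly: 2.12, 4.19, 2.86, 274 and 143 RPM beside 419.6, 509 and 591 RPM in controls (log2 fold change -4.84 ± 0.98 (SE), limma adjusted p = 0.0198).

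Of these 3 calls, that of Upk1b held in all 12 fits that left out 1 library, that of Slc2a5 was lost without any 1 of KO libraries 1, 2 and 3 (adjusted p up to 0.0787), and that of Sparc was lost in 9 of 12 fits that left out 1 library, all but the fits without KO libraries 1 and 2 and control 7 (adjusted p up to 0.0866). Without KO library 1, the purinergic receptor P2ry12 rose modestly. Its RPM was 6413, 10568, 16305, 12057 and 13042 in the KO beside 7330.2, 8609.7 and 10559.7 in controls (log2 fold change 0.52 without KO library 1 (limma adjusted p = 0.0249)). Siglech, a sialic acid receptor, also rose without that library (log2 fold change 0.46, limma adjusted p = 0.0225), while the Fc receptor-like gene Fcrls fell (log2 fold change -0.63, limma adjusted p = 0.0361). Cx3cr1, Tmem119 and Csf1r were not called with or without it.

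Members of the disease-associated list were called in both directions. In it 3 rose and 1 fell of 28 tested (median log2 fold change 0.41), beside -0.09 over all genes; when KO library 1 was left out, 7 rose and 1 fell with a median of 0.25. Spp1, which encodes osteopontin, was at 52.1, 69.1, 47.8, 98.1 and 72.1 RPM in the KO and 7.05, 16.1 and 31 RPM in controls. All KO libraries exceeded all controls, and Spp1 rose with a log2 fold change of 1.99 ± 0.34 (SE) at a limma adjusted p of 0.00505. Apoe and Lyz2, lysozyme 2, were the other members that rose (log2 fold changes 1.61 ± 0.36 (SE) and 1.19 ± 0.28 (SE)).

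Clec7a, which encodes the beta-glucan receptor dectin-1 and is a leading gene of the same programme, went the other way. It was at 4.88, 5.51, 3.27, 10.5 and 15.3 RPM in the KO. Controls had 77.5, 121 and 167 RPM, so the lowest control lay far above the highest KO library. It fell 16.5-fold, with a log2 fold change of -4.04 ± 0.34 (SE) at a limma adjusted p of 7.54e-06, and -3.94 without KO library 1 (limma adjusted p = 8.12e-06). The call held in all 12 fits that left out 1 library and under both scores. The annotation lists Clec7a as a polymorphic pseudogene. In the fit without KO library 1, Lpl (lipoprotein lipase), Cd68 (a lysosomal glycoprotein) and the cathepsins Ctsb and Ctsz also rose, with log2 fold changes of 1.03, 0.46, 0.34 and 0.36.

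**Figure D3:**
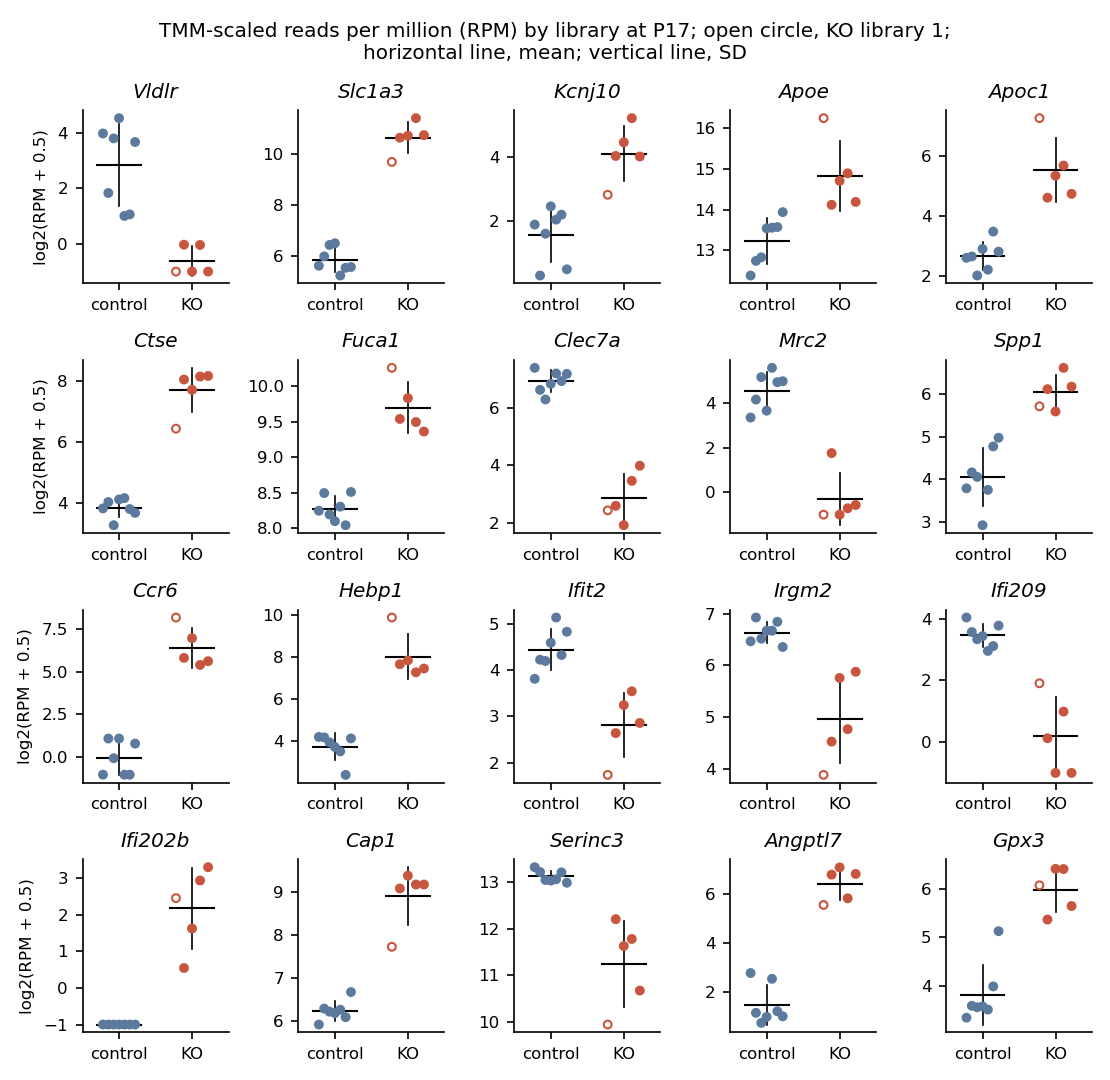
log2(RPM + 0.5) of 20 genes in each P17 library (y), by genotype (x); each point is 1 library, the open circle is KO library 1, and the lines give the mean and SD over 7 controls or 5 KO libraries. KO library 1 lies on the same side of the controls as the other KO libraries in all 20 genes.

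Interferon response genes lay low in the KO. Of the type I interferon list, 0 rose and 3 fell of 40 tested (median log2 fold change -0.71); 36 of the 40 were below 0, where over all genes 7269 of 13076 were. Without KO library 1, 7 members fell and the median was -0.89. Ifit2, an antiviral RNA-binding protein, was at 2.83, 5.73, 8.99, 11.2 and 6.76 RPM in the KO beside 13.6, 19.6 and 34.8 RPM in controls. No library of the groups overlapped, and it fell with a log2 fold change of -1.64 ± 0.35 (SE) at a limma adjusted p of 0.0255. Its neighbour Ifit3b was at 0.495, 1.52, 0, 0.0725 and 1.4 RPM beside 2.82, 3.43 and 5.74 RPM, with a log2 fold change of -2.02 ± 0.44 (SE) at a limma adjusted p of 0.0321. Usp18, which strips the ubiquitin-like ISG15 from proteins, was at 5.59, 3.51, 2.38, 5.98 and 5.78 RPM beside 5.67, 16.3 and 18.6 RPM, with the lowest control inside the KO range (log2 fold change -1.52 ± 0.36 (SE), limma adjusted p = 0.0479).

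These 3 calls sat near the threshold. That of Ifit2 was lost without any 1 of KO libraries 2 and 5 and controls 4 and 7 (adjusted p up to 0.0598); that of Ifit3b was lost in 9 of 12 fits that left out 1 library, all but the fits without KO libraries 1, 2 and 5 (adjusted p up to 0.105); that of Usp18 was lost in 10 of 12 fits that left out 1 library, all but the fits without KO library 1 and control 6 (adjusted p up to 0.144). All 3 remained called without KO library 1 and none with the rod or the Y-linked score. KO library 1 broke the pattern in other members. Rtp4, an interferon-induced chaperone of receptors, was at 133, 6.43, 6.53, 5.69 and 7.36 RPM in KO libraries 1 to 5 beside 14.1, 24.4 and 41.2 RPM in controls, so library 1 lay above and the other 4 below every control. Without it Rtp4 fell (log2 fold change -1.87, limma adjusted p = 0.00182), as did Rsad2 (-3.11, limma adjusted p = 0.0187), Trim30d (-1.44, 0.00991) and Xaf1 (-1.20, 0.0446).

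The p200 genes, DNA sensors induced by interferon that lie side by side on chromosome 1, gave calls in opposite directions. In that list 1 rose and 2 fell of 11 tested (median log2 fold change -0.98). Ifi209 was at 3.26, 0.59, 0, 1.49 and 0 RPM in the KO beside 7.27, 10.3 and 16 RPM in controls and fell 9.57-fold, with a log2 fold change of -3.26 ± 0.50 (SE) at a limma adjusted p of 0.00215. Ifi204 was at 3.19, 10.9, 2.31, 1.12 and 8.9 RPM beside 12.1, 22.3 and 50.4 RPM and fell with a log2 fold change of -2.40 ± 0.49 (SE) at a limma adjusted p of 0.0212. Ifi202b had no read in any control and stood at 4.95, 0.955, 2.57, 7.1 and 9.28 RPM in the KO, at least 51.9-fold higher than the level of 3 reads per control library (limma adjusted p = 7.60e-04). These genes are near copies of each other, so reads may be split between them. The calls of Ifi209 and Ifi202b held in all 12 fits that left out 1 library, and that of Ifi204 was lost without any 1 of KO library 3 and control 1 (adjusted p up to 0.0784); the Y-linked score ended those of Ifi209 and Ifi204 (adjusted p = 0.217 and 0.108) but not that of Ifi202b.

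Among guanylate binding proteins and interferon-induced GTPases, which attack the vacuoles of intracellular microbes, 0 rose and 1 fell of 10 tested (median log2 fold change -0.17); with KO library 1 left out, 0 rose and 1 fell with a median of 0.15. The member that fell was Irgm2, at 14.2, 22.5, 53.5, 26.7 and 58.2 RPM in the KO beside 81.3, 101 and 121 RPM in controls. Its groups did not overlap, with a log2 fold change of -1.67 ± 0.31 (SE) at a limma adjusted p of 0.0118, and the call held in all 12 fits that left out 1 library. Igtp, a GTPase of the same family, was at 29.3, 55.1, 74.5, 64.1 and 48.8 RPM beside 68, 84.1 and 89.5 RPM and was not called (limma adjusted p = 0.261).

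Interferon drives its genes through a composite element of 2 GAAA cores, so the upstream sequences of the type I interferon, p200 and GTPase lists were searched for GAAA, any 2 bases and GAAA again, on both strands (read as TTTC, any 2 bases and TTTC on the other), in the 250 bases before each start in the RefSeq promoter table (GRCm38.p6, the mm10 assembly). The element was present in 14 of 30 promoters of the type I interferon list (46.7%), in 7 of 10 of the p200 list (70.0%) and in 7 of 7 of the GTPase list, against 321 of 9680 genes tested with a promoter (3.32%) and 978 of 32851 windows in all (2.98%). Ifit3b held 2 matches and Irgm2 held 1, shown in capitals below, while both windows of Ifit2, 1 of Ifi209 and 1 of Ifi202b held none. The table has no entry for Usp18 and Ifi204. A match describes the letters of the window only. The 3 lists were drawn up as interferon genes, so their shares describe the lists and not the KO. The 2 windows with a match are shown 5′ to 3′ along the gene, for Ifit3b at chr19:34607707-34607956, plus strand and for Irgm2 at chr11:58214727-58214976, plus strand.
Ifit3b: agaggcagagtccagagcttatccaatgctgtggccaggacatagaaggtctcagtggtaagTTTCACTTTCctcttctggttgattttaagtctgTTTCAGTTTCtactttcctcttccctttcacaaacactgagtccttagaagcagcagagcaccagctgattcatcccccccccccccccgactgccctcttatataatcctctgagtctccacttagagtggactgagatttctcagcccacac
Irgm2: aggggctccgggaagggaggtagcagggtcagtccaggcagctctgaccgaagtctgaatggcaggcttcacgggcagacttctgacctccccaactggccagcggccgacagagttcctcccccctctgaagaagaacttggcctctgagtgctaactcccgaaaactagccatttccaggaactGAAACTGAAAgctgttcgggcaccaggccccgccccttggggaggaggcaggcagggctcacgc

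Chemokine receptors changed in both directions. In the receptor list 1 rose and 2 fell of 35 tested (median log2 fold change -0.23); with KO library 1 left out, 2 rose and 2 fell with a median of 0.08. Ccr6, the receptor of CCL20, was at 282, 54.9, 122, 41.2 and 48 RPM in the KO and at 0, 0.471 and 1.65 RPM in controls. It rose 83-fold on the log2(RPM + 0.5) scale, the highest fold of the comparison, with a log2 fold change of 6.38 ± 0.57 (SE) at a limma adjusted p of 1.35e-05, and 5.97 without KO library 1 (limma adjusted p = 1.75e-05). Ccr1, a receptor of inflammatory chemokines on chromosome 9, was at 2.19, 7.11, 2.09, 0.326 and 5.46 RPM beside 5.63, 20.7 and 38.1 RPM, with an overlap, and its call (log2 fold change -2.51 ± 0.58 (SE), limma adjusted p = 0.0412) was lost in 9 of 12 fits that left out 1 library, all but the fits without KO libraries 2 and 5 and control 1 (adjusted p up to 0.121).

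Of the chemokine and cytokine ligands, 0 rose and 2 fell of 29 tested (median log2 fold change 0.27); with KO library 1 left out, 1 rose and 3 fell with a median of -0.05. Tnfsf13b, which encodes the B cell factor BAFF, was at 66.8, 34.6, 21, 25.1 and 29.5 RPM beside 60.7, 77.2 and 95.5 RPM; KO library 1 lay within the controls and the other 4 below them. It fell with a log2 fold change of -1.22 ± 0.27 (SE) at a limma adjusted p of 0.0365, and -1.48 without KO library 1 (limma adjusted p = 1.56e-04). The other member that fell, Pdgfb, a platelet-derived growth factor chain, was at 54.1, 62.9, 34, 32.3 and 44 RPM beside 75.7, 89.9 and 123 RPM (log2 fold change -1.04 ± 0.23 (SE), limma adjusted p = 0.0308). The call of Tnfsf13b was lost in 10 of 12 fits that left out 1 library, all but the fits without KO library 1 and control 6 (adjusted p up to 0.122); that of Pdgfb was lost in 8 of 12 fits that left out 1 library, all but the fits without KO libraries 1 and 2 and controls 5 and 6 (adjusted p up to 0.107). Ccl12, a monocyte chemoattractant, exceeded all controls in every KO library at 2868, 300.2, 449, 279 and 361 RPM beside 112, 121 and 216 RPM, and was not called with all 12 libraries (limma adjusted p = 0.0608) but was without KO library 1 (0.00169), by edgeR and under some other settings. Cxcl10, an interferon-induced chemokine, was at 95.8, 2.92, 0, 0 and 0 RPM beside 3.09, 10.7 and 46.2 RPM, with library 1 again on the other side.

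Among C-type lectins, Fc receptors and scavenger receptors, 1 rose and 2 fell of 30 tested (median log2 fold change 0.14); with KO library 1 left out, 2 rose and 2 fell with a median of 0.18. Beside Clec7a, the member that fell was Mrc2, an endocytic collagen receptor, at 0, 2.87, 0, 0.109 and 0.175 RPM beside 9.63, 29.8 and 46.7 RPM in controls. It fell with a log2 fold change of -4.84 ± 0.54 (SE) at a limma adjusted p of 9.88e-05; the call held in all 12 fits that left out 1 library and under both scores. Cd300lf, an inhibitory lipid receptor, rose from 3.36, 4.75 and 7.81 RPM in controls to 18.9, 12.1, 15.9, 12.1 and 12.2 RPM (log2 fold change of 1.46 ± 0.31 (SE) at a limma adjusted p of 0.0255), and the call was lost without any 1 of KO libraries 2, 3 and 4 and controls 2, 3 and 7 (adjusted p up to 0.0782). Treml4, a receptor of the Trem family outside that list, had 0 reads in 5 of 7 controls, 0.929 RPM at the highest, and 3.54, 5.17, 16.6, 4.86 and 3.61 RPM in the KO (log2 fold change of 3.31 ± 0.45 (SE) at a limma adjusted p of 6.19e-04). edgeR did not call it (adjusted p = 0.127).

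Other immune lists held few calls. No antigen presentation gene of 28 and no toll-like receptor, inflammasome or NF-kB gene of 38 was called by limma with all 12 libraries (medians -0.11 and -0.31). Without KO library 1 the nonclassical class I gene H2-T23 fell, from 116, 177 and 223 RPM in controls to 222, 62.7, 61.9, 74.7 and 81.6 RPM in KO libraries 1 to 5, of which library 1 lay in the upper control range (log2 fold change -1.28, limma adjusted p = 6.29e-04). Its neighbour in the family, H2-T24, rose (1.07, limma adjusted p = 0.0421). Of 17 complement genes, C4b rose, at 29.4, 88.4, 83.7, 92.7 and 167 RPM beside 9.06, 25.9 and 42.3 RPM (log2 fold change of 1.75 ± 0.41 (SE) at a limma adjusted p of 0.0486); its call was lost in 11 of 12 fits that left out 1 library, all but the fit without KO library 1 (adjusted p up to 0.135). C1qb and C1qc were not called.

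The rise with the smallest adjusted p was in Slc1a3, the glutamate-aspartate transporter GLAST. Slc1a3 (ENSMUSG00000005360, chr15:8634124-8710764), minus strand, was at 829, 1601, 1687, 2718 and 1717 RPM in KO libraries 1 to 5. The lowest, median and highest controls had 37.7, 49.3 and 91 RPM. It rose 27.6-fold, with a log2 fold change of 4.79 ± 0.30 (SE) at a limma adjusted p of 3.20e-07, and 5.02 without KO library 1 (limma adjusted p = 1.67e-08); it was called in all 12 fits that left out 1 library and under the rod and Y-linked scores. No other gene of glutamate transport and metabolism was called: 1 rose and 0 fell of 18 tested (median log2 fold change -0.30). Ranbp3l, a Ran-binding protein gene 257 kb from Slc1a3 on chromosome 15, had no read in controls and 1.06, 5.34, 6.02, 11.5 and 4.83 RPM in the KO, at least 60.1-fold higher than the level of 3 reads per library (limma adjusted p = 3.71e-04).

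Kcnj10, the inward rectifier potassium channel Kir4.1, was at 6.58, 16, 21.7, 37 and 15.8 RPM in the KO beside 0.72, 3.2 and 5.003 RPM in controls, without overlap, and rose with a log2 fold change of 2.55 ± 0.49 (SE) at a limma adjusted p of 0.0139. The call was lost without KO library 3 (adjusted p = 0.0523). Slc1a3 and Kcnj10 also mark Mueller glia and astrocytes. Among other markers of those cells, Rlbp1 had 10.5 to 171 RPM in controls and 0.849 to 17.8 RPM in the KO, Aqp4 0.0895 to 20.5 and 0 to 4.39 RPM, and Gfap at most 1.62 and 0.145 RPM. Glul, glutamine synthetase, had 258 to 412 RPM in controls and 353 to 1617 RPM in the KO, the highest in KO library 1. The part of these cells in the result was not tested. Of 13 tested markers, Slc1a3, Kcnj10 and Apoe rose and Clu, a secreted chaperone, fell (median -0.44, list sum with Apoe 5829.6 to 16166 RPM in controls and 19845 to 80619 RPM in the KO, without overlap, no marker at 0 throughout either group). Apoe, which microglia also express, made up most of that sum in every KO library. Its own values, given below, separated the groups, so the sum does not describe the other markers. Clu was at 0.566, 9.67, 2.93, 1.45 and 0 RPM beside 7.25, 14.9 and 139 RPM, and its call was lost in 8 of 12 fits that left out 1 library, all but the fits without KO library 2 and controls 5, 6 and 7 (adjusted p up to 0.0863).

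Of the lipid efflux and lipoprotein genes, 2 rose and 0 fell of 21 tested (median log2 fold change -0.01); the called pair lies at 1 locus. With KO library 1 left out, 3 rose and 0 fell with a median of 0.19, the further member being Lpl (log2 fold change 1.03 without KO library 1 (limma adjusted p = 0.044)). Apoe, the main apolipoprotein of microglia, was at 77696, 17751, 26682, 30362 and 18646 RPM in the KO beside 5320.1, 11882 and 15668 RPM in controls; KO library 1 was the highest and all KO libraries exceeded all controls (log2 fold change of 1.61 ± 0.36 (SE) at a limma adjusted p of 0.0373, and 1.25 without KO library 1 (limma adjusted p = 0.0201)). Apoc1, a small apolipoprotein 3.45 kb from Apoe on chromosome 7, was at 151, 23.9, 39.99, 50.6 and 26.2 RPM beside 3.58, 5.83 and 10.7 RPM and rose with a log2 fold change of 2.84 ± 0.42 (SE) at a limma adjusted p of 0.00157. The call of Apoc1 held in all 12 fits that left out 1 library and under both scores, whereas that of Apoe was lost in 8 of 12 fits that left out 1 library, all but the fits without KO libraries 1, 2 and 5 and control 7 (adjusted p up to 0.0958). Cholesterol synthesis genes had no call among 23 (median -0.23), with or without KO library 1.

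Lysosomal genes gave 1 large change. Ctse, the aspartic protease cathepsin E (ENSMUSG00000004552, chr1:131638306-131675505), was at 85.9, 262, 208, 280.2 and 284 RPM in the KO and 9.23, 13.7 and 17.5 RPM in controls. KO library 1 was the lowest of the KO group, still above every control. Ctse rose 14.3-fold, with a log2 fold change of 3.84 ± 0.30 (SE) at a limma adjusted p of 5.89e-06, and 4.16 without KO library 1 (limma adjusted p = 1.40e-08). It was the only called gene of 39 in the lysosome and phagocytosis list (median -0.16); without KO library 1, Cd68, Ctsb, Ctsz and Gusb, the beta-glucuronidase gene, rose too (median 0.20, Gusb log2 fold change 0.45). Fuca1, a lysosomal fucosidase outside the list, was at 1225, 743, 910.4, 721 and 657 RPM beside 263, 302 and 364 RPM and rose with a log2 fold change of 1.43 ± 0.20 (SE) at a limma adjusted p of 8.13e-04. Ctse and Fuca1 were called with every other scaling, filter, pseudocount and test that was set beside limma, and Fuca1 lost its call only with the Y-linked score in the fit without KO library 1, a setting chosen after seeing the data.

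Iron, heme and redox genes had 3 of 31 members higher and none lower (median 0.43, 0.17 without KO library 1). Hebp1, a heme-binding protein, was at 940.4, 201, 229, 154 and 175 RPM beside 4.78, 14.9 and 17.9 RPM in controls and rose 19.6-fold, with a log2 fold change of 4.29 ± 0.43 (SE) at a limma adjusted p of 3.80e-05. Gpx3, a secreted glutathione peroxidase, was at 66.9, 40.8, 84.7, 84.5 and 49.6 RPM beside 9.67, 11.5 and 34.5 RPM (log2 fold change of 2.17 ± 0.33 (SE) at a limma adjusted p of 0.00173), and Ncf4, the p40 subunit of the phagocyte oxidase, at 259.8, 103, 132, 144 and 116 RPM beside 44, 59.3 and 71.5 RPM (log2 fold change of 1.25 ± 0.24 (SE) at a limma adjusted p of 0.0154). All 3 separated the groups fully and held in all 12 fits that left out 1 library. Slc40a1, the iron exporter ferroportin, was at 88.5, 464, 784, 753 and 627 RPM beside 323, 350.2 and 439 RPM and was not called with all 12 libraries but rose without KO library 1 (log2 fold change 0.81, limma adjusted p = 0.00494).

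Of the angiogenic factors and their receptors, 2 rose and 1 fell of 21 tested (median log2 fold change -0.16); with KO library 1 left out, 2 rose and 1 fell with a median of 0.15. Angptl7, an angiopoietin-like secreted protein, was at 46.6, 110.1, 135, 56.3 and 112 RPM in the KO beside 1.19, 1.75 and 6.4 RPM in controls and rose 30.1-fold, with a log2 fold change of 4.91 ± 0.43 (SE) at a limma adjusted p of 9.57e-06. Serpinf1, which encodes the antiangiogenic factor PEDF, was at 613, 204, 353, 130.2 and 190.3 RPM beside 67.4, 75.8 and 85.6 RPM (log2 fold change of 1.76 ± 0.31 (SE) at a limma adjusted p of 0.00744, and 1.44 without KO library 1 (limma adjusted p = 8.92e-04)). Both calls held in all 12 fits that left out 1 library, and only that of Angptl7 under the rod and Y-linked scores. Pdgfb was the member that fell. In the matrix and adhesion list Spp1 and Sparc rose and no other of 28 tested genes was called (median -0.28, and 0.03 without KO library 1, with the same counts).

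Metabolic lists held few calls. Beside Slc2a5 no glycolysis gene of 27 was called with all libraries (median -0.35, and -0.02 without KO library 1); without KO library 1, Ldhb, a lactate dehydrogenase chain, rose (log2 fold change 0.71) and the glucose transporter Slc2a6 fell (-1.09). Acadl, the long-chain acyl-CoA dehydrogenase, was the 1 fatty acid gene called, at 9.41, 23.4, 30.7, 19.4 and 21.3 RPM beside 37, 49.5 and 59.7 RPM (log2 fold change of -1.31 ± 0.27 (SE) at a limma adjusted p of 0.0238). Its call was lost without any 1 of KO library 4 and controls 1, 2, 4, 6 and 7 (adjusted p up to 0.0587). Dgat2, which makes triglyceride, rose without KO library 1 (log2 fold change 2.15, limma adjusted p = 0.019), and the median of that list moved from -0.15 to 0.10. Oxidative phosphorylation genes had no call among 35, but 30 of them were above 0 with a median of 0.64, which was 0.13 without KO library 1.

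Stress, division and signalling lists were not called with all 12 libraries: 0 of 23 immediate early genes, 0 of 25 heat shock genes, 0 of 46 cell cycle genes, 0 of 26 unfolded protein response genes, 0 of 23 TGF-beta genes and 0 of 23 purinergic receptors and ion channels, by limma. Their medians lay between -0.32 and 0.30. The purinergic and ion channel median moved from -0.29 to 0.05 without KO library 1. Over all genes 1787 had an unadjusted p under 0.05. In the fit without KO library 1, the potassium channel gene Kcnma1 and the adenosine receptor Adora1 rose beside P2ry12 (log2 fold changes 0.98 and 1.20), as did Hsp90ab1, a chaperone (0.60), and Cdc45, a replication factor (1.98). Klf4, an immediate early transcription factor, was at 4.46, 5.48, 8.84, 3.37 and 6.23 RPM beside 0.096, 0.352 and 3.7 RPM and stayed just above the threshold (limma adjusted p = 0.0527, and 0.0528 without KO library 1). Of 40 macrophage and microglia transcription factors, Ets1 fell, at 20.03, 87.8, 36.9, 43 and 123 RPM beside 138, 167 and 225 RPM (log2 fold change of -1.79 ± 0.36 (SE) at a limma adjusted p of 0.0191); its call was lost without KO library 3 (adjusted p = 0.0775).

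**Figure D4:**
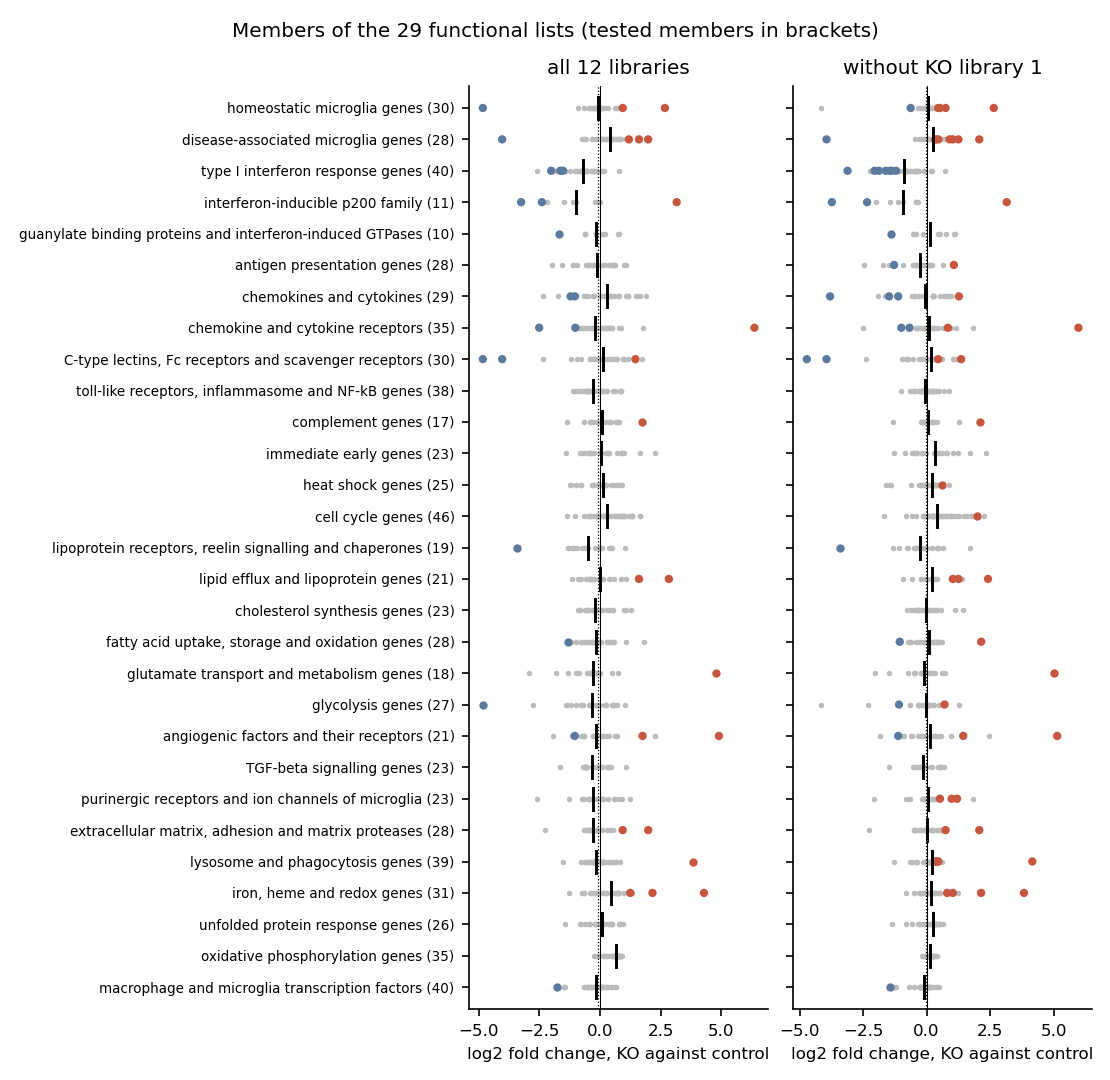
Log2 fold change of KO against control (x) for the tested members of the 29 functional lists (y), with all 12 libraries (left) and without KO library 1 (right); red and blue points are called higher and lower, grey points are not called, black bars are list medians, and the dotted line is the median of all genes. The interferon and p200 lists have medians of -0.71 and -0.98 with all libraries, and the oxidative phosphorylation median moves from 0.64 to 0.13.

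Outside the lists, the gene with the smallest adjusted p was AI506816, a noncoding transcript on chromosome 5. It was at 0.212, 0.478, 0, 0.797 and 0 RPM in the KO beside 36.7, 38.7 and 69.1 RPM in controls and fell 60.5-fold (log2 fold change of -5.92 ± 0.34 (SE) at a limma adjusted p of 1.59e-07). Cap1, an actin regulator, was at 212, 545, 670.3, 580.4 and 581 RPM beside 59.99, 74 and 102 RPM (log2 fold change of 2.68 ± 0.27 (SE) at a limma adjusted p of 3.80e-05, and 2.97 without KO library 1 (limma adjusted p = 1.40e-08)). Serinc3, a membrane protein that restricts retroviruses, was among the most abundant genes that fell, at 982, 4718, 3163, 3516 and 1630.1 RPM beside 8123, 8552 and 10236 RPM (log2 fold change of -1.88 ± 0.31 (SE) at a limma adjusted p of 0.00475). All KO libraries of these genes lay outside the control range, and their calls held in all 12 fits that left out 1 library. The rod and the Y-linked score ended the call of Serinc3 (adjusted p = 0.152 and 0.0938), and the Y-linked score that of Cap1 (adjusted p = 0.0581).

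Other large rises were in low genes. Gdpd3, a lysophospholipase, rose 13.8-fold from 0.716 to 3.62 RPM in controls to 16.1 to 95.8 RPM in the KO. Fam189a2 rose 13.5-fold (0 to 2.56 RPM to 10.8 to 23.3 RPM), the zinc finger gene Zfp691 6.9-fold (0.897 to 6.14 RPM to 18.7 to 35.7 RPM) and Abhd1, a hydrolase gene annotated as a polymorphic pseudogene, 8.15-fold (0.0686 to 0.307 RPM to 2.72 to 12 RPM). BC018473, an antisense transcript, had no read in controls and 1.05 to 17.7 RPM in the KO, at least 67.8-fold higher than 3 reads per library; the strand setting of the counting is not given, so its reads and those of its partner cannot be told apart. All 5 calls held in all 12 fits that left out 1 library. More abundant genes rose less: Arpc1b, an actin nucleation subunit, Igsf8, a tetraspanin partner, and Lyz2 had log2 fold changes of 0.95, 1.06 and 1.19, at limma adjusted p of 0.0488, 0.0427 and 0.0427. The call of Arpc1b was lost in 10 of 12 fits that left out 1 library, all but the fits without KO libraries 1 and 5 (adjusted p up to 0.144); that of Igsf8 was lost in 11 of 12 fits that left out 1 library, all but the fit without KO library 1 (adjusted p up to 0.121); that of Lyz2 was lost in 10 of 12 fits that left out 1 library, all but the fits without KO libraries 1 and 2 (adjusted p up to 0.105).

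Several of the larger falls were in genes of photoreceptors. Gucy2e (retinal guanylate cyclase), Guca1b (its activating protein), Pde6a (a rod phosphodiesterase subunit) and Ppef2 (a photoreceptor phosphatase) fell with log2 fold changes of -3.27, -3.23, -3.03 and -3.00. None was called with the rod score as a covariate. Gucy2e, Guca1b and Pde6a are themselves part of that score, so the loss of their calls under it carries no information. Rod markers as a list had 0 higher and 3 lower of 22 with a median of -1.89. Their part in the other lower calls was not tested beyond the covariate. Of the other marker lists, 0 of 7 cone (median -2.02), 0 of 13 interneuron and ganglion cell, 0 of 6 endothelial, 0 of 5 pigment epithelium, 0 of 7 border-associated macrophage, 0 of 2 lymphocyte and 0 of 1 erythrocyte markers were called, and no pericyte marker passed the filter. Monocyte and neutrophil markers had 0 higher and 1 lower of 6, with sums of 314 to 424 RPM in controls and 131 to 805 RPM in the KO. Gucy2e held in all 12 fits that left out 1 library. The call of Guca1b was lost in 7 of 12 fits that left out 1 library, all but the fits without KO libraries 1, 2 and 4 and controls 5 and 7 (adjusted p up to 0.107); that of Pde6a was lost in 10 of 12 fits that left out 1 library, all but the fits without KO library 2 and control 5 (adjusted p up to 0.125); that of Ppef2 was lost without any 1 of KO library 3 and control 3 (adjusted p up to 0.062).

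The other genes that fell had mixed support. Mocs1, of molybdenum cofactor synthesis, fell from 10.9 to 18.3 RPM to 0.0708 to 8.63 RPM and Osbpl3, an oxysterol-binding protein, from 1.85 to 8.83 RPM to 0 to 0.843 RPM, both in all 12 fits that left out 1 library. Endod1, an endonuclease-domain gene, fell from 141 to 208 RPM to 31.5 to 131 RPM; its call was lost without KO library 3 (adjusted p = 0.0634). Txnip, the thioredoxin-interacting protein, Lgals3bp, a galectin ligand, and Lrba, a vesicle protein, each lost the call in 10 of 12 fits that left out 1 library, all but those without KO library 1 or 5, with adjusted p up to 0.107, 0.101 and 0.122. Padi2, a peptidylarginine deiminase, fell with a log2 fold change of -1.70 ± 0.38 (SE); its call was lost in 8 of 12 fits that left out 1 library, all but the fits without KO libraries 1, 4 and 5 and control 1 (adjusted p up to 0.124). Spata6 and Zfp984 fell with log2 fold changes of -2.88 and -2.85. The call of Spata6 was lost in 9 of 12 fits that left out 1 library, all but the fits without KO libraries 4 and 5 and control 7 (adjusted p up to 0.0909); that of Zfp984 was lost in 10 of 12 fits that left out 1 library, all but the fits without KO libraries 4 and 5 (adjusted p up to 0.159). S100a9, a neutrophil gene, had at most 2.75 RPM in any control and 2 reads in all in the KO; its call was lost in 9 of 12 fits that left out 1 library, all but the fits without KO library 1 and controls 5 and 6 (adjusted p up to 0.0968).

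The Y-linked genes Ddx3y, Uty and Kdm5d were called lower and Xist higher, as the per-library values above show. Eif2s3y was not called with all 12 libraries (limma adjusted p = 0.0514) but was without KO library 1 (0.00404) and under 6 other settings. The call of Uty held in all 12 fits that left out 1 library; that of Ddx3y was lost without any 1 of KO libraries 2, 3 and 5 (adjusted p up to 0.0787); that of Kdm5d was lost in 11 of 12 fits that left out 1 library, all but the fit without KO library 1 (adjusted p up to 0.151); that of Xist was lost in 10 of 12 fits that left out 1 library, all but the fits without controls 4 and 6 (adjusted p up to 0.113).

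Pseudogenes were 413 of the genes tested (3.16%) but 37 of the 106 that rose (34.9%), against 3 of the 86 that fell (3.49%). No test was made of these shares. Of the 37, 33 are annotated as processed, that is, as reverse-transcribed copies of spliced messages. All 37 separated the groups fully, 37 were called without KO library 1, 33 by edgeR, 23 with the rod score and 17 with the Y-linked score. Of all 106 genes that rose, 96 separated the groups fully. Of the same 106, 88 were called by edgeR, 49 with the rod score and 34 with the Y-linked score. Both sets were chosen by their calls in these libraries, so these counts are no separate support. The mean of the 37 copies in controls had a median of 0.115 RPM and in the KO of 5.47 RPM, and KO library 1 held the highest value in 28 of them. The filter asked for 10 reads in 5 libraries, which the 5 KO libraries can meet alone. A copy near 0 in controls was tested only if all of them met it. Full separation of such copies was therefore largely set by the filter. Its part in the share among genes that rose was not tested. Reads of a copy and of its parent gene can be assigned to either, so the parent genes were set beside them.

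Rps3a3, a copy of the ribosomal protein gene Rps3a1 on chromosome 13, rose from 0.276, 0.48 and 1.1 RPM in controls to 185, 35.9, 38.2, 29.5 and 29.9 RPM in the KO (log2 fold change of 5.52 ± 0.46 (SE) at a limma adjusted p of 7.54e-06). Rps3a1 stood at a mean of 135 RPM in controls and 83.3 RPM in KO libraries 2 to 5 (limma adjusted p = 0.0153 without KO library 1), so copy and parent summed to 136 and 117 RPM. KO library 1 held 550.2 RPM of Rps3a1, and over all 5 KO libraries the sum was 240.5 RPM, above that of controls. Ndufs5-ps, on chromosome 16, rose from a mean of 0.0646 RPM to 9.47 RPM in the same libraries while Ndufs5, a complex I subunit, fell from 9.85 to 1.77 RPM, sums of 9.91 and 11.2 RPM. Over all 5 KO libraries the sum was 24 RPM. With all libraries Ndufs5 fell by 1.80 on the log2 scale (limma adjusted p = 0.0382). Atp6v0c-ps2 rose from 1.04 to 19.9 RPM and its parent, a proton pump subunit, fell from 137 to 91.3 RPM without KO library 1 (limma adjusted p = 0.0107). Over all 5 KO libraries that parent stood at 133 RPM and was not called (limma adjusted p = 0.683), and copy and parent summed to 172 RPM against 138 RPM in controls and 111 RPM in KO libraries 2 to 5.

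Eno1b, an enolase gene that the annotation lists as coding, rose from 2.88, 3.36 and 5.17 RPM to 32.1, 56, 71.1, 30.8 and 35 RPM (log2 fold change of 3.42 ± 0.30 (SE) at a limma adjusted p of 9.57e-06), while Eno1 stood at means of 519.5 RPM in controls and 418 RPM in KO libraries 2 to 5 (383 RPM over all 5) and was not called. Among the 11 tested pairs whose copy carries the parent's symbol with a ps suffix, the parent was called higher in 0 and lower in 1 with all libraries, and higher in 1 and lower in 2 without KO library 1.

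**Figure D5:**
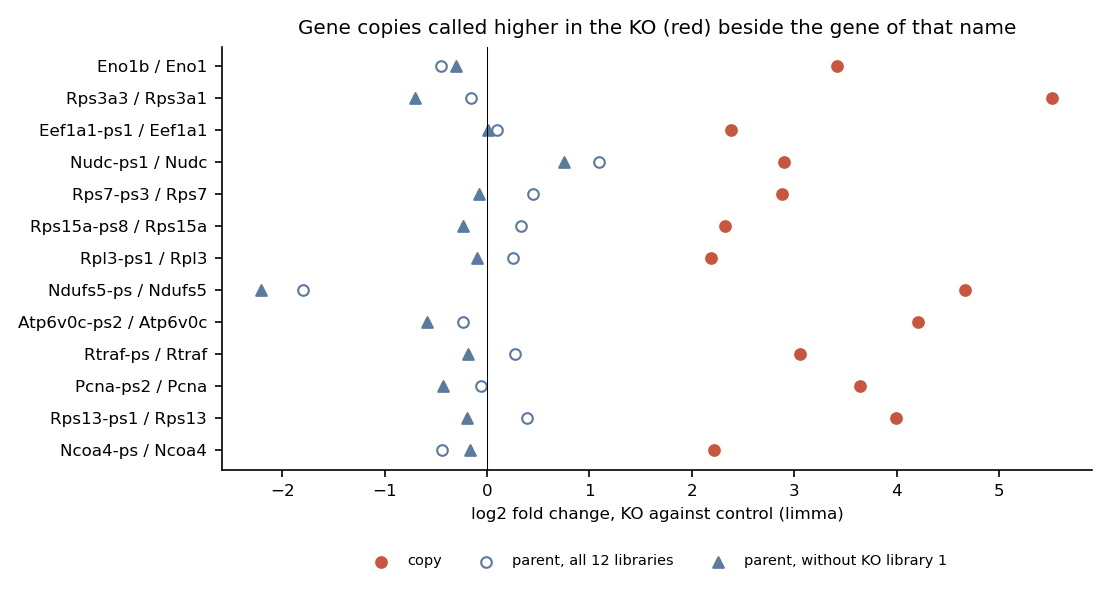
Log2 fold change of KO against control (x, limma) for 13 gene copies called higher and for the parent gene of each (y). The copies lie between 2.19 and 5.52; the parents lie between -1.80 (Ndufs5) and 1.09 (Nudc) with all 12 libraries.

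Some called genes lay beside each other. Of the 192, 59 (30.7%) had another called gene within 500 kb, beside 13% of the tested genes that were not called, a difference for which no test was made. Those neighbours formed 36 pairs, 26 with the same direction. Pairs that moved together included Slc1a3 and Ranbp3l, Apoe and Apoc1, Igsf8 and Kcnj10, Ifit2 and Ifit3b, and Serinc3 and the tocopherol transfer-like gene Ttpal. Pairs that moved apart included AI506816 and Srpk2, a splicing kinase gene that rose, and Ifi209 and Ifi202b. By chromosome, 3.14% of tested genes were called on chromosome 4 (24 of 765), 2.56% on chromosome 1 (20 of 781) and 2.39% on chromosome 15 (12 of 503). Over all genes tested the share was 1.47%. Few genes were tested on the Y and the mitochondrial chromosome, where the shares were higher, at 50% (3 of 6) and 7.69% (1 of 13).

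Around Vldlr itself, 39 genes within 5 Mb were tested and 2 were called. Kcnv2, a potassium channel subunit gene of photoreceptors that lies 68.4 kb away, fell (log2 fold change -3.71, limma adjusted p = 0.039, and 0.0615 without KO library 1), and Fam189a2 rose. Pum3, Smarca2 and Rfx3, the next tested genes, were not called (limma adjusted p = 0.572, 0.682 and 0.435).

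KO library 1 differed from the rest of its group in particular genes as well as in scaling. Among the 306 genes called without it, library 1 lay beyond the controls on the same side as the others in 223, within the control range in 40 and beyond the controls on the opposite side in 43. Csf3r, the granulocyte colony-stimulating factor receptor, was at 117, 609, 532, 674 and 787 RPM in KO libraries 1 to 5 beside 286, 389 and 411 RPM in controls, and Il6st, the shared receptor chain gp130, at 83.2, 341, 309, 374 and 322 RPM beside 435, 539.9 and 661 RPM. Csf3r rose and Il6st fell without library 1 (log2 fold changes 0.84 and -0.67, limma adjusted p = 0.00212 and 0.00386), so library 1 lay below all controls in both, against its group in Csf3r and with it in Il6st.

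The P31 libraries, which share no sample with P17, were fitted alone, and there 389 of 12363 genes were called (3.15%), 225 higher (1.82%) and 164 lower (1.33%). P31 values are given for some of the genes above as examples. They do not show what share of the 192 changed alike at P31. The P31 log2 fold change of Slc1a3 was 4.68 ± 0.14 (SE, limma adjusted p = 2.44e-09), of Ctse 3.66 ± 0.37 (SE, limma adjusted p = 2.01e-04), of Ccr6 6.96 ± 0.52 (SE, limma adjusted p = 2.54e-05) and of Clec7a -2.87 ± 0.22 (SE, limma adjusted p = 2.62e-05). Serinc3 had -2.96 ± 0.09 (SE, limma adjusted p = 2.44e-09) and Irgm2 -1.77 ± 0.24 (SE, limma adjusted p = 0.00141). Ncf4 had 0.07 ± 0.16 (SE, limma adjusted p = 0.865) and Ifit2 -0.88 ± 0.58 (SE, limma adjusted p = 0.524), neither called at P31; whether the ages differ was not tested. The authors' deposited table for P17 lists 451 genes at an adjusted p under 0.05, 251 higher and 200 lower. Of the 192 genes called here, 133 (69.3%) are among them, all in the same direction. Of the 451 genes called in the authors' deposited table, 351 passed the filter and were tested here, and the 133 are 29.5% of the 451.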

How the data were processed

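RNA of sorted retinal microglia was measured in 12 P17 libraries. Per the submitters' processing notes, the tools named are STAR 2.7.5b, featureCounts, FastQC 0.72, R 3.5.3 and DESeq2 1.22.2, with the mm10 build; the sources used here do not give the strand setting. The authors deposited normalised counts, a signal per gene that is the read count divided by a size factor. The authors' deposited tables of comparisons hold log2 fold changes and p-values.

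Each column was divided by the value of 1 read; 100% of 194044 nonzero P17 values came out whole (tolerance 1e-06). No 2 libraries of the same group agreed within sampling noise. Reads were scaled by TMM (edgeR 4.0.16), and genes with at least 10 reads in 5 libraries were tested with limma 3.58.1 (trend, robust) on log2(RPM + 0.5), KO against control, with Benjamini-Hochberg adjustment over 13076 genes and a threshold of 0.05. Fold changes are on that scale, which understates the change of low genes. A gene without reads in controls, such as Ranbp3l, BC018473 or Ifi202b, passed the filter only if all 5 KO libraries held at least 10 reads. Its separation of the groups was therefore set by the filter. Counts of genes with all KO libraries above the controls include such genes. limma was the main test because the deposited values are normalised; edgeR's quasi-likelihood test, DESeq2 1.42.0 and sva 3.50.0 were alternatives, with other scalings, filters, pseudocounts, covariates and libraries left out. Tables and figures were made with R 4.3.3, Python 3.11.15, pandas 2.3.3 and matplotlib 3.10.9. Of 28984 genes, 99.8% matched the annotation by identifier.

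The fits were tested on simulated data with known changes before they were run on these reads. The simulation took the mean level and spread of each gene and the library sizes from these 12 libraries. It drew each library independently, with no library set apart, no differences in rod RNA and no imbalance of Y-linked reads. The shares that follow describe the simulated data and need not hold for the calls above. The limma fit recovered 11.2% of simulated 2-fold, 54.5% of 4-fold and 70.1% of 8-fold changes. Of its calls there, 6.92% were unchanged genes. A gene or list without a call is therefore not shown to be unchanged.

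Genes named are Vldlr; the 15 called genes with the largest fold change in each direction among those with at least 5 RPM in the higher group, no overlap and a gene symbol that is not a clone or copy name; the 10 most abundant called genes in each direction; and, in each list, called members and up to 4 uncalled members of smallest p. Other genes, among them those called only without KO library 1 and the gene copies, were chosen after their values were seen. The members and lists were chosen with earlier results of these data known. Some list members are not reported here, although counts and medians over lists include them.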

Additional observations from a re-analysis of the deposited data

Results flagged for a closer look

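In 203 groups of 5 or 7 libraries, the highest or lowest library was set against the others by Dixon's ratio. It passed the 95% critical value in 35 groups, 19 of them through KO library 1. Chance gives about 1 in 20 groups, but the genes examined include some chosen because KO library 1 departs in them, so the 2 shares cannot be compared. That library took 34.5% of its reads from 10 genes and 1.13% from mitochondrial genes, both the highest of the KO group. By log2(RPM + 0.5) it was the highest KO library in Rps3a3 (7.54), Hebp1 (9.88), Sparc (14.32), Siglech (11.89), Cd68 (12.54), Ctsz (13.19), Rtp4 (7.06), Xaf1 (5.93), H2-T23 (7.80) and Ccl12 (11.49). It was the lowest in Ctse (6.43), Cap1 (7.73), Ctsb (11.53), Slc40a1 (6.48), Csf3r (6.88), Il6st (6.39) and Kcnma1 (3.45). Ctse and Cap1 were among the called genes, and in both KO library 1 still lay above every control.

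Other KO libraries stood apart in Mrc2 in KO library 2 (1.75, highest), Treml4 in KO library 3 (4.10, highest), Uty in KO library 4 (3.11, highest), Gucy2e in KO library 4 (1.65, highest) and S100a9 in KO library 5 (-0.81, highest), on the same scale. KO library 2 had the highest relative deposited size factor of the KO group, 1.18. In controls the libraries that stood apart were Eno1b in control 4 (2.50, highest), Hebp1 in control 6 (2.40, lowest), Treml4 in control 7 (0.51, highest), Gpx3 in control 7 (5.13, highest), Upk1b in control 2 (0.44, lowest), Uty in control 6 (2.10, lowest), Pdgfb in control 2 (6.95, highest), Lgals3bp in control 2 (9.52, highest), Usp18 in control 6 (2.63, lowest) and Rsad2 in control 3 (0.33, lowest).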

How the results depend on the processing

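With all 12 libraries limma called 192 genes, 106 higher and 86 lower, and 33 list members. DESeq2 called 385 (199 higher, 186 lower, 50 list members) and a surrogate variable 317 (193 higher, 62 list members), while edgeR called 117 (24 lower), no filter 108 (26 lower, 19 list members) and limma voom 39 lower. The rod score left 59 (50 higher, 9 lower, 12 list members) and the Y-linked score 49 (34 higher, 15 lower, 14 list members). Leaving out 1 library gave 109 to 306 genes, 77 to 182 higher and 31 to 124 lower, with 20 to 57 list members. Vldlr kept its direction in these fits, at -3.75 to -3.16. It missed the threshold with the rod score (-2.25, adjusted p = 0.304), the Y-linked score (-3.05, adjusted p = 0.189) and voom (-6.30, adjusted p = 0.232). The cause was not tested.

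Chosen after seeing the data, fits without KO library 1 called 562 genes by DESeq2 (277 higher, 285 lower, 90 list members) and 21 with the Y-linked score (14 higher, 7 lower, 5 list members). Without it edgeR called 56 lower and the rod score left 45 lower. Vldlr then stood at -2.43 with the Y-linked score (adjusted p = 1.0), -2.28 with the rod score (adjusted p = 0.169) and -5.34 by edgeR (adjusted p = 0.0559).

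With the replicate number as a block, 75 genes were called (53 higher, 22 lower, 17 list members). The labels do not say whether the numbers pair the libraries. Deviations of same-numbered libraries correlated at 0.090, -0.059, -0.022, 0.082 and 0.092, and KO libraries 1 and 5 of the 5 correlated best with the control of their own number. These correlations do not decide whether same-numbered libraries were prepared together.

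Of the 67 called genes in the text, over 32 settings, 1480 of 2107 values kept direction and call, 623 kept direction without the call and 4 turned. With the Y-linked score the log2 fold change turned in Ddx3y (0.29), Kdm5d (0.13), Eif2s3y (0.96), P2ry12 (-0.15), Ctsb (-0.32), Slc40a1 (-0.76), Rtp4 (0.72), Xaf1 (0.42), Cxcl10 (0.18), Csf3r (-0.60) and Kcnma1 (-0.22). Leaving out KO library 1 as well, it turned in Uty (0.36), Ddx3y (0.31) and Eif2s3y (0.27). Ddx3y, Eif2s3y, Kdm5d and Uty make up the Y-linked score, so their signs under it carry no information. The 4 values of called genes that turned were all of this kind. edgeR turned Rtp4 (0.36), Xaf1 (0.42) and Cxcl10 (0.54). Ctsb turned under the deposited scaling (-0.16) and without KO library 3, 4 or 5 (-0.0044, -0.063 and -0.0034), and reached 0.34 without KO library 1.

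Depth did not separate the groups, at 23.9 to 33.7 M reads, and precision is set by the number of libraries.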
